A study of Arabidopsis thaliana with 6 samples.

Results

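The chloroplast genome of Arabidopsis thaliana was represented in the deposited files by 133 loci, out of 33602 in all. They were taken as every locus whose identifier starts with ATCG, and were grouped by the complex that the protein description in the files names. Whole seedlings of the wild type Col-0 were compared with those of the toc1-21 prr5-1 double mutant, in which TOC1 and PRR5, pseudo-response regulators of the circadian clock, are both mutated. All seedlings were 10 days old at harvest, which was at ZT15, 15 h after the lights came on. They grew at 22 °C in long days, and the MS medium held 3% sucrose. Each genotype had 3 libraries, called biological replicates by the submitters. Whether these came from separate growths is not stated, and p-values then measure only the spread between the samples, which may be technical. Of the 133 loci, 95 reached 1 RPKM (reads scaled to gene length and library depth) in at least 3 libraries and were tested, and 38 did not. The 95 comprised 18 ribosomal protein genes, 13 of photosystem II, 10 of the NDH complex, 7 of photosystem I, 6 of the cytochrome b6f complex, 6 of the ATP synthase, 4 of the plastid RNA polymerase, the gene for the large subunit of Rubisco, 8 other genes and 22 loci with no description in the files.

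The chloroplast genome encodes core subunits of the photosynthetic complexes and part of the machinery that expresses them, while most chloroplast proteins are encoded in the nucleus. Its genes are read by a bacterial-type polymerase (PEP), whose core is encoded by rpoA, rpoB, rpoC1 and rpoC2 and which needs a nuclear-encoded sigma factor to start, and by a nuclear-encoded phage-type polymerase (NEP). Many are read together as polycistronic precursors, which nuclear-encoded proteins cut and stabilise, and in chloroplasts a poly(A) tail marks RNA for decay. The sources used here do not state how RNA was selected for the libraries.

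The results turn on a few small genes of photosystem II, whose coding sequences are shown from the RefSeq plastid genome of TAIR10.1, with the start and stop codons in capitals. psbI and psbK encode small membrane subunits, are neighbours on the plus strand and are known as parts of 1 precursor, and of the pair psbI alone was called in the genotype comparison. psbI lies at positions 7583 to 7693 and psbK at positions 7017 to 7202.
psbI: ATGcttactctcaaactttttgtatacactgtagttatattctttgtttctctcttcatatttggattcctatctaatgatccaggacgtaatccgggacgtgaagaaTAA
psbK: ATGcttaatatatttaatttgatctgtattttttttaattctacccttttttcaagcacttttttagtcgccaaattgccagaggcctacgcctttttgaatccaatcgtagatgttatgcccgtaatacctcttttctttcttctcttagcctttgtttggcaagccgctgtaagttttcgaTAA

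psbM, at positions 28707 to 28811 of the minus strand, encodes a small subunit near the interface of the photosystem II dimer and had the highest RPKM of all loci in the files. psbF, at positions 63942 to 64061 of the minus strand, encodes the beta subunit of cytochrome b559 and was listed at or near 0. The recovered gene length equalled the printed length for psbI (111 bases), psbK (186 bases) and psbM (105 bases).
psbM: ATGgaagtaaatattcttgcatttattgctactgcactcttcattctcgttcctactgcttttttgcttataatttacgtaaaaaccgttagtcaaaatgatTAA
psbF: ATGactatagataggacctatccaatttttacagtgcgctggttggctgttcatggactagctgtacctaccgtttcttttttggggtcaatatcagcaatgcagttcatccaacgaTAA

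The libraries rested on 14617043 to 26792712 reads. TOC1 fell from 31.99 to 34.9 RPKM in the Col-0 libraries to 14.8 to 18.6 RPKM in the mutant libraries, and PRR5 fell from 2.88 to 3.01 RPKM to 0.926 to 1.35 RPKM. Of all genes tested, 10.6% were called, 3.9% higher and 6.65% lower. Of the root markers tested, 0 of 8 were called, and their summed level was 79.2 to 126 RPKM in Col-0 and 108 to 123 RPKM in the mutant. Of 10 markers of leaf and shoot epidermis, 1 was called lower (ATML1). Their sums were 608, 570 and 658 RPKM in Col-0 and 574, 557 and 678 RPKM in the mutant. All 3 seed markers (CRA1, CRC and OLEO1) were called lower, with sums of 502 to 627 RPKM against 269 to 329 RPKM, and no marker was at 0 in every library. The part of these lists in the results below was not tested. In whole seedlings, fewer chloroplast-rich cells and less chloroplast RNA per cell cannot be told apart.

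Chloroplast transcripts as a whole did not shift with genotype beyond the spread between libraries. Among the 95 tested loci, psbI rose in the mutant, the undescribed locus ATCG00090 fell, and 93 were not called (limma on log2(RPKM + 1), Benjamini-Hochberg adjusted p under 0.05 over 19710 genes). Beside 3.9% of all genes tested called higher and 6.65% lower, 10.6% in either direction, 2 calls of 95 were fewer than the background share. The median log2 fold change over the tested chloroplast loci was 0.04, against -0.01 over all genes tested, with 52 loci above 0 and 43 below. The values of the genotypes did not overlap for 4 of the 95 (psbI, ATCG00090, ATCG00410 and ATCG00620), against 27% of all genes tested. An unadjusted p under 0.05 was reached by 6 of 95, against 22.4%. These low shares stood beside a large spread between libraries of 1 genotype. The median residual SD was 0.51 on the log2 scale for chloroplast loci, 0.43 for 29 tested mitochondrial loci and 0.12 for 8359 other genes of like level.

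**Figure D1:**
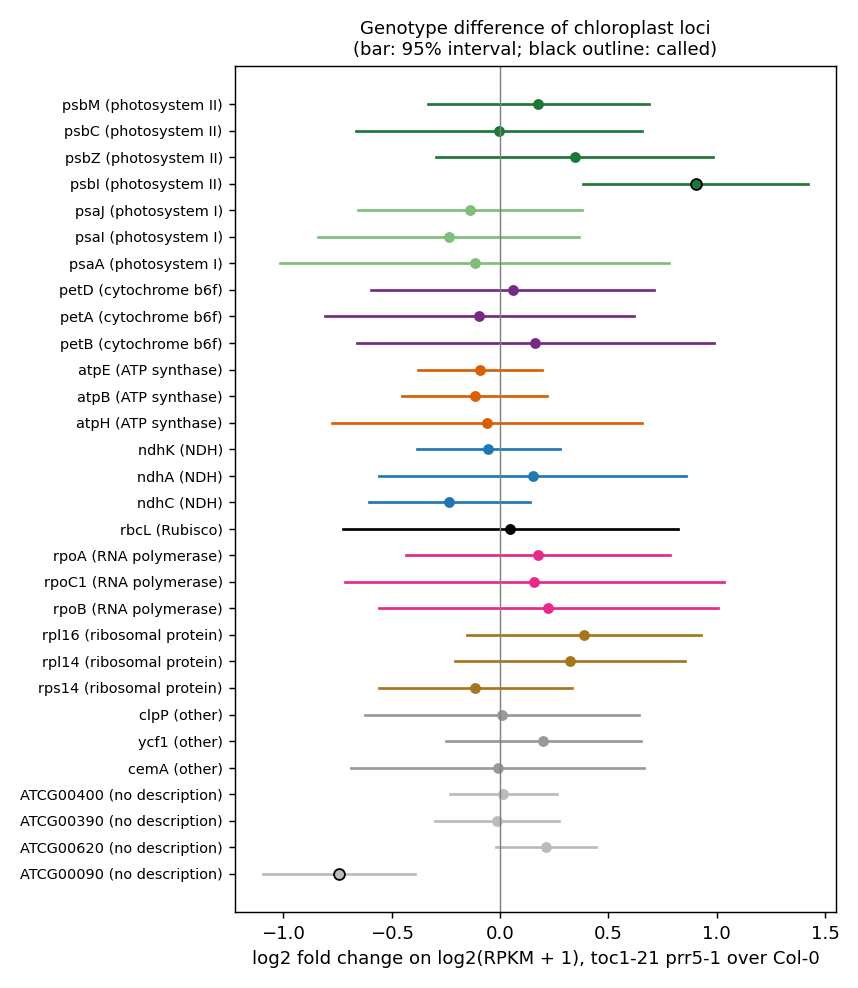
Log2 fold changes on the log2(RPKM + 1) scale, toc1-21 prr5-1 over Col-0 (horizontal axis), for the called loci and the 3 loci with the highest mean RPKM in each group. Bars are 95% intervals of the limma fit over 3 libraries a genotype. Only psbI at 0.90 and ATCG00090 at -0.74 carry a black outline for a call, and of the other loci none has an interval clear of 0.

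psbI was measured at 251, 157 and 180.0 RPKM in Col-0 replicates 1 to 3 and at 303, 293 and 527 RPKM in the mutant replicates. All 3 mutant libraries were above all 3 Col-0 libraries, and mutant replicate 3 stood well above the other two. These values came from 282 to 443 reads in Col-0 and 698 to 1168 reads in the mutant. Col-0 averaged 196 ± 49.3 RPKM and the mutant 374 ± 133 RPKM (SD over 3 libraries each). The log2 fold change was 0.90, with a 95% interval of 0.38 to 1.42 (limma adjusted p = 0.0343). The call was near its threshold. It was lost when replicate 2 or replicate 3 of Col-0 was left out (limma adjusted p = 0.0961 and 0.0682), or when replicate 1 or replicate 3 of the mutant was (0.0536 and 0.0761). With no filter on low genes it was lost too (limma adjusted p = 0.0950).

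psbK, upstream of psbI in the same precursor, was not called. It was measured at 71.0, 39.5 and 64.5 RPKM in Col-0 and at 54.4, 52.0 and 73.8 RPKM in the mutant. The values of the genotypes overlapped, with Col-0 replicate 2 the lowest library and mutant replicate 3 the highest. The log2 fold change was 0.07 ± 0.21 (SE) with a limma adjusted p of 0.903. The difference between the fold changes of psbI and psbK was itself not tested.

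ATCG00090, for which the files give no description, was measured at 173, 145 and 190.1 RPKM in Col-0 and at 79.5, 124 and 101 RPKM in the mutant. All 3 mutant libraries were below all 3 Col-0 libraries. The recovered length was 88 bases, and the values came from 145 to 371 reads. ATCG00090 is the next locus after psbI in the order of identifiers, and its strand was not determined. Whether the opposite changes of psbI and ATCG00090 are linked was not tested. Col-0 averaged 169 ± 23.01 RPKM and the mutant 102 ± 22.4 RPKM (SD over 3 libraries each). The log2 fold change was -0.74, with a 95% interval of -1.09 to -0.39 (limma adjusted p = 0.0136). This call was lost when Col-0 replicate 1 was left out (limma adjusted p = 0.0580), and when chloroplast values were divided by each library's median chloroplast ratio, a scaling chosen after seeing the data (0.0555). Under that scaling psbI was again the 1 locus called higher, against 3.97% of all genes tested, and ATCG00370 the 1 called lower, against 6.73%.

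Col-0 replicate 2 stood apart from the other libraries in its chloroplast transcripts. It held the lowest of the 6 values for 76 of the 95 tested loci (80%), against 24.6% of all genes tested. Its level over the mean of Col-0 replicates 1 and 3 had a median of 0.488 for chloroplast loci and 0.967 for all genes tested. The ratio was below a value of 0.5 for 51 of the 95 loci (53.7%), against 1.57% of all genes tested. Within the mutant, replicate 3 was the highest library for 86 of the 95 loci. The ratio was computed after seeing the values and is given as a description.

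**Figure D2:**
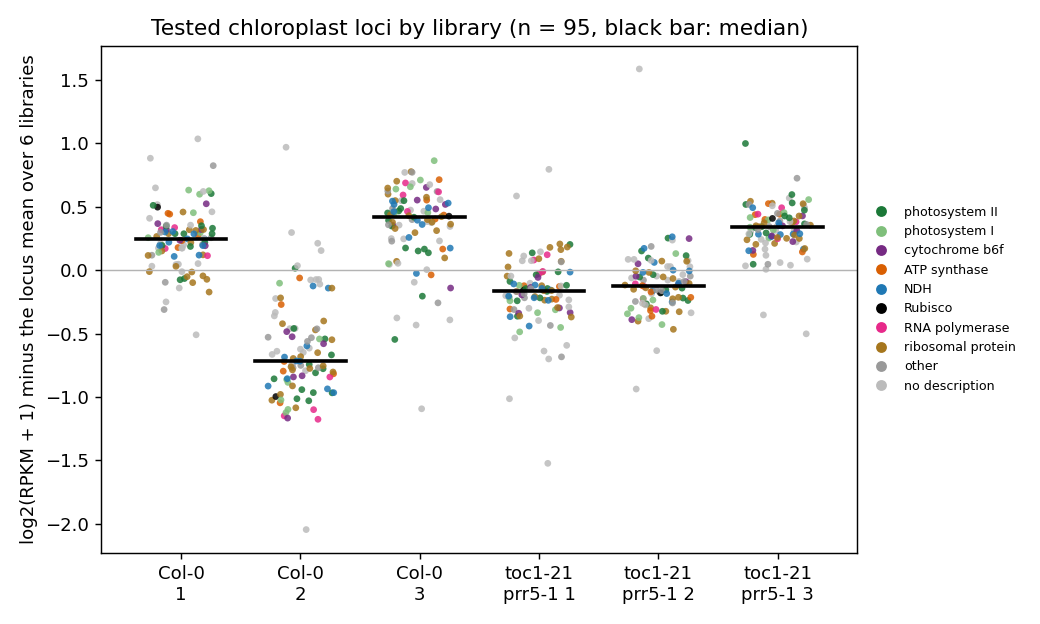
Each point is 1 of the 95 tested chloroplast loci in 1 library, as log2(RPKM + 1) minus the mean of that locus over the 6 libraries (vertical axis), coloured by complex, and black bars are library medians. Col-0 replicate 2 lies below the other 5 libraries, while Col-0 replicates 1 and 3 and mutant replicate 3 lie highest.

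The depression in Col-0 replicate 2 was uneven across loci. psaA and psaB, which encode the paired core proteins of photosystem I, were at 0.298 and 0.289 of the other Col-0 libraries, and rpoC2, a core subunit of the PEP polymerase, at 0.297. psbM was at 1.11, atpE, the epsilon subunit of the ATP synthase, at 0.891, and psaJ, a small photosystem I subunit, at 0.835. By mean level, the median ratio was 0.863 for the 10 loci at 700 RPKM or more, 0.449 for 61 loci between 50 and 700 RPKM, and 0.517 for 24 loci under 50 RPKM. Across the 69 tested loci with a RefSeq length, the ratio and gene length had a Spearman rho of -0.48. All these loci share the same libraries, so this is a description of 1 library.

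**Figure D3:**
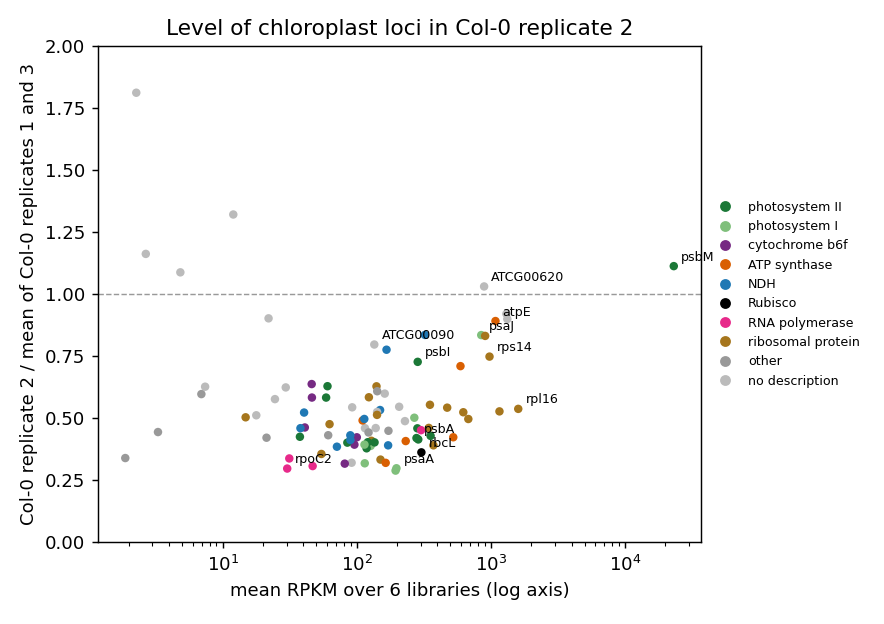
Level of tested chloroplast loci in Col-0 replicate 2 over the mean of Col-0 replicates 1 and 3 (vertical axis), against mean RPKM over the 6 libraries (horizontal log axis), coloured by complex. ATCG00260, with a ratio of 0, is not drawn. Most loci lie near the median of 0.488. Those near the dashed line of equal level include psbM at 1.11, ATCG00620 at 1.03, atpE at 0.891 and psaJ at 0.835.

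Leaving out Col-0 replicate 2 changed which loci were called. Without it, 0 loci were called higher and 6 of 95 lower, against 4.07% and 5.95% of all genes tested. The lower calls were thus near that share. The median log2 fold change became -0.29. As this library held the lowest value at most loci, leaving it out moves their fold changes down by construction. The 6 were ATCG00090 (-0.85), ATCG00200 (-0.997), psaA (-0.69), ycf3 (-0.95), ATCG00370 (-1.11) and petG (-0.65), and their limma adjusted p ranged from 0.00155 to 0.0420. ycf3 encodes an assembly factor of photosystem I, and petG a small subunit of the cytochrome b6f complex. With all 6 libraries these loci other than ATCG00090 were not called, with log2 fold changes of -0.71 for ATCG00200, -0.12 for psaA, -0.40 for ycf3, -0.57 for ATCG00370 and -0.28 for petG. ATCG00370 was at 154, 47.5 and 143 RPKM in Col-0 and at 57.1, 65.6 and 83.5 RPKM in the mutant, with Col-0 replicate 2 below the mutant libraries and the other Col-0 libraries above them. Except for psaA and ATCG00090, these loci were named after their values were seen.

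Photosystem II splits water, and its reaction centre is built on psbA (the D1 protein) and psbD (the D2 protein). Of its 13 tested loci, 1 was called higher and 12 were not called, with log2 fold changes from -0.26 to 0.90. psbA was measured at 405, 146 and 293 RPKM in Col-0 and at 264, 225 and 343 RPKM in the mutant. The Col-0 libraries spanned the mutant libraries on both sides, and the log2 fold change was 0.08 ± 0.31 (SE). psbD was measured at 331, 158 and 356 RPKM against 243, 225 and 389 RPKM, with a log2 fold change of 0.06 ± 0.30 (SE). psbC, the inner antenna protein CP43, had a log2 fold change of -0.0040 ± 0.29 (SE), and its coding region overlaps that of psbD, so reads in the shared bases could belong to either. psbZ, a small subunit, had 347, 136 and 310.0 RPKM against 304, 295 and 336 RPKM, with a log2 fold change of 0.34 ± 0.29 (SE).

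psbM was measured at 21867, 23288 and 19991 RPKM in Col-0 and at 22464, 27457 and 23802 RPKM in the mutant. The genotypes overlapped, and its log2 fold change of 0.18 ± 0.23 (SE) was not called (limma adjusted p = 0.741). This single short gene made up 42.3% to 59.6% of the summed chloroplast RPKM and 13.1% to 26.6% of chloroplast reads. Its largest share fell in Col-0 replicate 2, where the other loci were low. psbN, which encodes a protein known from tobacco to act in photosystem II assembly, lies on the strand opposite psbT and psbH. psbN was at 144, 57.1 and 158 RPKM in Col-0 and at 102, 102 and 150.0 RPKM in the mutant. psbT was at 146, 62.3 and 164 RPKM in Col-0 and at 110.2, 139 and 195 RPKM in the mutant. The low value in Col-0 replicate 2 was common to most chloroplast loci, while mutant replicates 1 and 2 were level for psbN and apart for psbT. The library kit was directional, but the sources used here do not state the strand setting of the counting, so reads of psbN and of its opposite strand cannot be told apart.

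Photosystem I reduces ferredoxin at the end of the electron chain, and of its 7 tested loci none was called, with 6 of the log2 fold changes below 0. psaA was measured at 283, 84.6 and 285 RPKM in Col-0 and at 157, 148 and 231 RPKM in the mutant. Col-0 replicate 2 was the lowest library and the other Col-0 libraries were the highest, and the log2 fold change was -0.12 with a 95% interval of -1.01 to 0.78. psaB was close to psaA in every library, at 271, 81.3 and 293 RPKM against 151, 140.3 and 235 RPKM. psaJ was at 987, 769 and 856 RPKM against 654, 613 and 1215 RPKM, with a log2 fold change of -0.14 ± 0.23 (SE), and mutant replicate 3 was the highest library. psaI, another small subunit, had a log2 fold change of -0.24 ± 0.27 (SE).

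The cytochrome b6f complex passes electrons between the photosystems, and of its 6 tested loci none was called, with log2 fold changes from -0.28 to 0.23. petA (cytochrome f), petB (cytochrome b6) and petD (subunit IV) had log2 fold changes of -0.09 ± 0.32, 0.16 ± 0.37 and 0.06 ± 0.29 (SE). All 6 loci were lowest in Col-0 replicate 2. The ATP synthase, which makes ATP from the proton gradient, had 6 tested loci and no call, with log2 fold changes from -0.12 to 0.09. atpE was steady, at 1268, 1034 and 1051 RPKM in Col-0 and 966, 991 and 1192 RPKM in the mutant, while atpH, the membrane ring subunit, was at 681, 287 and 675 RPKM against 444, 387 and 678 RPKM. Their log2 fold changes were -0.09 ± 0.13 and -0.06 ± 0.32 (SE), and Col-0 replicate 2 was at 0.891 of the other Col-0 libraries for atpE and at 0.423 for atpH. atpB, the catalytic beta subunit, had a log2 fold change of -0.12 ± 0.15 (SE).

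The NDH complex carries cyclic electron flow around photosystem I, and its 10 tested loci gave no call, with log2 fold changes from -0.23 to 0.23. Its 3 most abundant members were ndhK, ndhA and ndhC, with log2 fold changes of -0.05 ± 0.15, 0.15 ± 0.32 and -0.23 ± 0.17 (SE). rbcL, which encodes the large subunit of Rubisco, the enzyme that fixes carbon dioxide, was measured at 405, 143 and 385 RPKM in Col-0. In the mutant it was at 257, 253 and 380.5 RPKM. Col-0 replicate 2 was below all mutant libraries and the other Col-0 libraries above them, and the log2 fold change was 0.05 with a 95% interval of -0.73 to 0.82. The interval leaves room for a change of over 1.5-fold in either direction at this spread.

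The genes of the expression machinery also gave no call. The 4 polymerase genes had log2 fold changes between 0.08 and 0.22, and all 4 were lowest in Col-0 replicate 2. rpoB, the beta subunit, was at 33.4, 13.3 and 45.1 RPKM in Col-0 and at 31.3, 27.0 and 38.8 RPKM in the mutant, a log2 fold change of 0.22 ± 0.35 (SE). rpoA and rpoC1 had log2 fold changes of 0.18 ± 0.27 and 0.16 ± 0.39 (SE). The 18 ribosomal protein loci ranged from -0.31 to 0.39, with 11 above 0. rpl16, of the large ribosomal subunit, was the most abundant of them, at 1376, 906 and 1994 RPKM in Col-0 and 1734.9, 1628 and 1977 RPKM in the mutant. Its log2 fold change was 0.39 ± 0.24 (SE), and it passed the test when Col-0 replicate 3 was left out, as did the low locus ATCG00260, which rested on 0 to 22 reads. These were the 2 loci called higher there, against 4.03% of all genes tested, and ATCG00090 was the 1 called lower, against 6.7%. rpl14 and rps14 had log2 fold changes of 0.32 ± 0.24 and -0.11 ± 0.20 (SE). Of the remaining described genes, clpP (a protease subunit), ycf1 (ATCG01130, a protein of the inner envelope) and cemA (an envelope membrane protein) had log2 fold changes of 0.01 ± 0.28, 0.20 ± 0.20 and -0.01 ± 0.30 (SE).

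Among the 22 tested loci with no description, ATCG00400, ATCG00390 and ATCG00620 were the most abundant and among the steadiest. ATCG00400 was at 1356, 1229.6 and 1378 RPKM in Col-0 and at 1236, 1408 and 1364 RPKM in the mutant, with a log2 fold change of 0.02 ± 0.11 (SE). ATCG00390 had a log2 fold change of -0.01 ± 0.13 (SE). ATCG00620 was at 747, 844 and 891 RPKM in Col-0 and at 983, 943 and 944 RPKM in the mutant. Its genotypes did not overlap, but the log2 fold change of 0.21 ± 0.10 (SE) was not called (limma adjusted p = 0.270). ATCG00410 did not overlap either, at 27.2, 24.5 and 27.2 RPKM against 9.91, 21.5 and 22.0 RPKM, and was not called (limma adjusted p = 0.162). These values rested on 15 to 44 reads.

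Genotype differences were set side by side within polycistronic units. In 13 units drawn from textbook knowledge, the spread of log2 fold changes within a unit was 0.01 to 0.41 in all but the unit of psbK and psbI, where it was 0.84. These spreads are not particular to units, since loci of 1 complex also lay close together, from -0.23 to 0.23 in the NDH complex and from -0.12 to 0.09 in the ATP synthase. In the unit of psaA, psaB and rps14, the 3 log2 fold changes lay between -0.13 and -0.11, while the mean level ran from 195 RPKM for psaB to 978 RPKM for rps14. Col-0 replicate 2 was at 0.289 of the other Col-0 libraries for psaB and at 0.748 for rps14. In the unit of rpoB, rpoC1 and rpoC2 it was between 0.297 and 0.338 for all 3. Members of a unit share a precursor and are not replicates of each other.

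**Figure D4:**
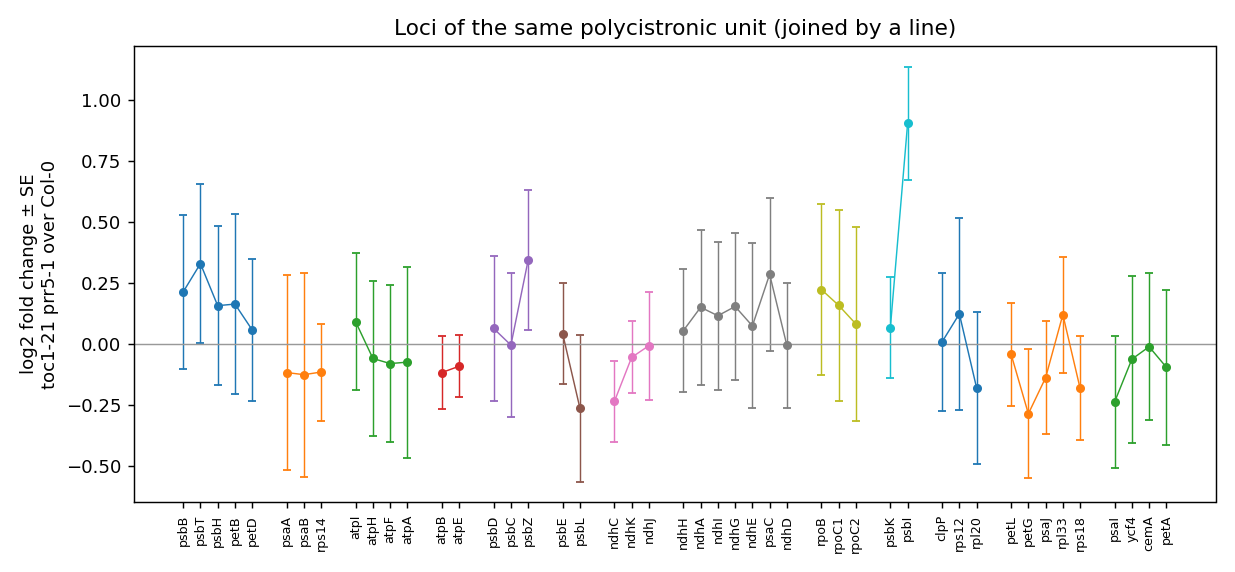
Log2 fold change on the log2(RPKM + 1) scale, toc1-21 prr5-1 over Col-0 (vertical axis), for tested loci along the horizontal axis, with the members of a polycistronic unit joined by a line. Bars are SE of the limma fit over 3 libraries a genotype. psbI at 0.90 stands apart from psbK at 0.07, while the other units spread by at most 0.41.

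Summed levels of loci known to be read mainly by PEP or by NEP overlapped between the genotypes. The summed level of 24 PEP loci, psbM left out, was 5394, 2650.0 and 5249 RPKM in Col-0 and 3783, 3774 and 5861 RPKM in the mutant. The summed level of 4 NEP loci (rpoB, rpoC1, rpoC2 and accD) was 147, 55.7 and 190 RPKM in Col-0. In the mutant it was 119, 103 and 166 RPKM. As rpoB, rpoC1 and rpoC2 share a polycistronic unit, this sum mostly describes that unit and not NEP loci at large. The ratio of the NEP sum to the PEP sum was 0.0210 to 0.0362 in Col-0 and 0.0274 to 0.0315 in the mutant, so the mutant lay inside the range of Col-0.

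Among nuclear genes that serve chloroplast transcription and RNA processing, SIG5 rose and SIG2 fell. Of 35 tested genes for sigma factors, phage-type polymerases, PEP-associated proteins and plastid RNA processing, 1 was higher, 1 was lower and 33 were not called, a share below the 10.6% called among all genes tested (3.9% higher and 6.65% lower). SIG5, a stress- and light-responsive sigma factor known to act at a psbD promoter, rose in the mutant. It was at 1.47, 1.10 and 0.900 RPKM in Col-0 and at 4.53, 4.59 and 3.66 RPKM in the mutant. The log2 fold change on log2(RPKM + 1) was 1.29 (limma adjusted p = 0.000584). This scale understates changes at such low levels, and the mutant mean was 3.68 times the Col-0 mean. SIG2, which serves tRNA genes and some photosynthesis genes, fell from 27.8, 29.8 and 35.0 RPKM to 15.7, 13.3 and 14.3 RPKM, or -1.04 in log2 fold change (limma adjusted p = 0.000189). SIG1, SIG3, SIG4 and SIG6 had log2 fold changes of 0.41, -0.03, -0.28 and -0.05 and were not called. Beside these, psbD changed by 0.06 ± 0.30 and psbA by 0.08 ± 0.31 (SE). The tRNA loci were not identified from the descriptions in the files, so those that SIG2 serves could not be picked out. ATCG00090, lower like SIG2, had a recovered length of 88 bases, and whether it is a tRNA gene was not determined. The link between the sigma factors and any chloroplast locus was not tested. PEP-associated proteins gave 0 calls of 14 and plastid RNA processing proteins 0 of 13, beside the same 10.6%.

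**Figure D5:**
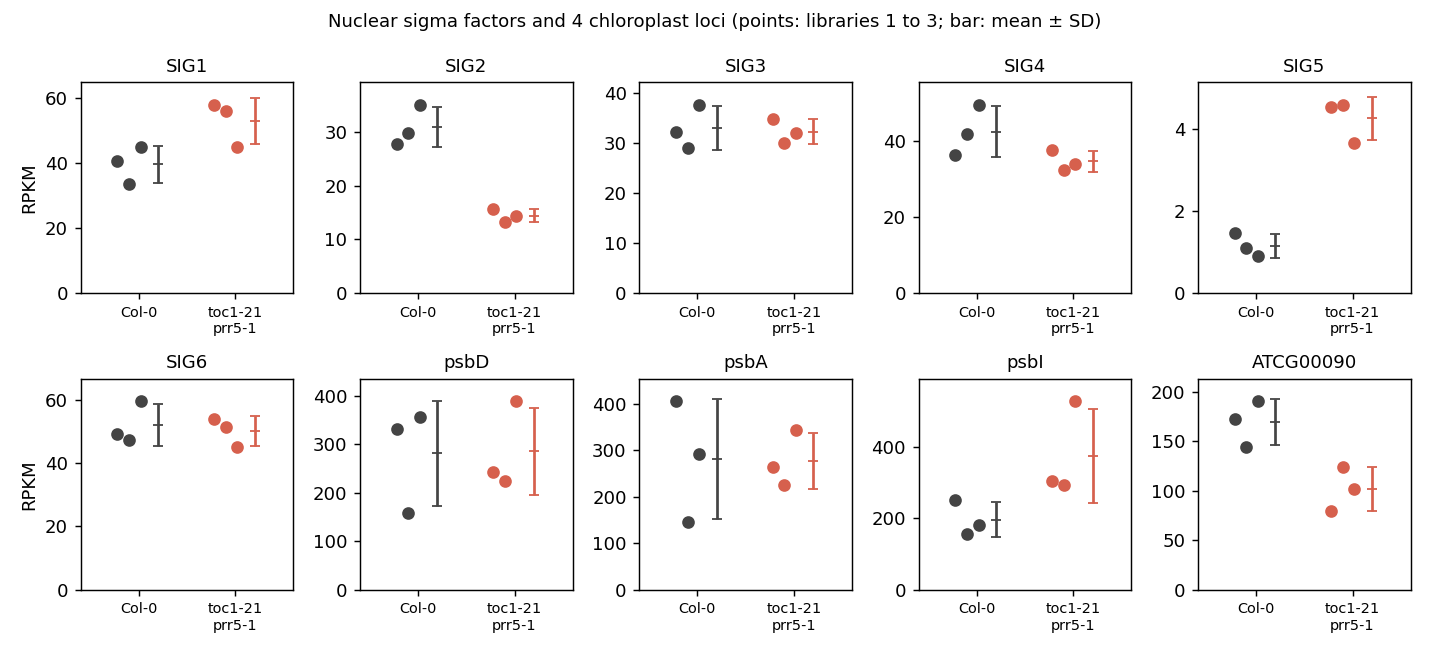
RPKM (vertical axes from 0, scaled per panel) of the 6 nuclear sigma factors and of psbD, psbA, psbI and ATCG00090 in Col-0 and toc1-21 prr5-1. Points are libraries 1 to 3 from left to right and bars are mean ± SD. SIG5 rose to 3.66 to 4.59 RPKM and SIG2 fell to 13.3 to 15.7 RPKM, while the genotypes overlapped for psbD and psbA.

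The summed shares of chloroplast reads overlapped between the genotypes. It was 1.48%, 0.925% and 1.61% of reads in Col-0 and 1.25%, 1.26% and 1.59% in the mutant. Mitochondrial loci made up 0.324%, 0.144% and 0.260% in Col-0 and 0.178%, 0.170% and 0.291% in the mutant. The same 3 libraries, Col-0 replicates 1 and 3 and mutant replicate 3, were highest for both organelles, and Col-0 replicate 2 was lowest for both. Those 3 libraries also had the highest sums of the leaf and shoot epidermis markers, while mutant replicate 2 had the lowest. A link between the marker sums and the organelle shares was not tested. The part that the share of organelle RNA in a library plays in the values of single loci was not tested.

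The 38 untested loci included 16 described loci that the files list as copies, psbF and 21 with no description. Of the 38, 23 were listed at 0 in all 6 libraries. The copies were those described as rpl2, rpl23, ycf2, ndhB, rps7, ycf15, ORF91 and rps12, and none passed 1 RPKM in 3 libraries. The loci described as ORF91 had a recovered length of 2810 bases, far longer than a reading frame of 91 codons. What these ORF91 loci encode was not determined. In the RefSeq plastid genome the paired copies of rpl2, rpl23, ycf2, ndhB and rps7 were 100% identical to each other, so how reads that match both copies were counted bears on these values, and the sources used here do not state it. A value at or near 0 at these loci is therefore not read as absence of the transcript. psbF was listed at 0, 0 and 0.752 RPKM in Col-0 and at 0.402, 0 and 0 RPKM in the mutant, while psbE, its neighbour in the same precursor, was at 42.9 to 69.2 RPKM in Col-0. The near-0 values of psbF are likewise not read as absence of the transcript, and their cause was not tested.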

How the data were processed

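RNA of whole seedlings was sequenced in 6 libraries. The deposited files hold RPKM values for 33602 loci, 1 file a library, per the file headers. TopHat2, TopHat, edgeR and the TAIR10 build are named without roles or versions, per the submitters' processing notes, and a directional kit per the labels' protocols. The sources used here do not state the counter, its strand setting or its handling of reads with several matches.

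The test was limma 3.58.1 (R 4.3.3) on log2(RPKM + 1), with a trend of variance on mean and a genotype term alone. Loci reaching 1 RPKM in 3 or more libraries, 19710 in all, were fitted together, with Benjamini-Hochberg adjustment over all of them and a threshold of 0.05. Fold changes on this scale understate those of low loci. The fit was also run on simulated data in which each gene varied independently. That simulation does not cover loci that move together by library, as the chloroplast loci did here. Whole reads behind the RPKM values were recovered from their steps, with depth as an integer and the smallest gene length that made all 6 values whole within 0.001, found for 25139 of 25139 loci above 0, so reads are too few where true counts share a factor. They summed to 99.51% to 99.56% of depth and serve for shares of reads and for limma-voom, an alternative. Loci were matched to RefSeq TAIR10.1 by symbol, since the plastid entries carry no ATCG identifiers. The recovered length equalled a RefSeq length for 75 of the 85 described loci whose symbol is in RefSeq. Loci at 0 in every library, such as ATCG00840, have no recovered length and count as unequal.

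The named loci are the called loci and the 3 with the highest mean RPKM in each complex. The rule also listed tRNA and rRNA groups, to which no locus was assigned from the descriptions, so it could not be applied there. Other named loci were chosen after their values were seen. The members and lists were chosen with earlier results of these data known.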

Additional observations from a re-analysis of the deposited data

How the results depend on the processing

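Of 50 loci followed through the alternatives, 28 changed sign in at least 1, and 0 of these were called where the sign changed; the cause was not tested beyond the library left out. psbI and ATCG00090 kept their sign in all alternatives run. The count of chloroplast loci called higher was 1 in the reported fit, 0 with no filter on low genes and 0 to 2 when a library was left out, where ATCG00060 (without mutant replicate 2), named after its values were seen, also passed. The count called lower was 1, and 0 to 6 when a library was left out. The median log2 fold change was 0.04 and moved to -0.29 when Col-0 replicate 2 was left out and to -0.12 for mutant replicate 3. It moved to -0.06 with an equal chloroplast sum in each library, a scaling that psbM dominates. The SD of library medians was 0.48, but it is a spread of single libraries, Col-0 replicate 2 among them. It therefore does not gauge these moves. Machinery genes called higher numbered 0 at a 5 RPKM filter, which leaves SIG5 untested, 2 by limma-voom (SIG1 added) and 1 to 3 when a library was left out; those called lower numbered 1 to 2. ATCG00370 was called lower with median chloroplast scaling, chosen after seeing the data (log2 fold change -0.61, limma adjusted p = 0.0265).

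With nuclear median scaling, psbC became 0.016, ATCG00390 0.0064 and cemA 0.0093. With an equal chloroplast sum, ATCG00400 became -0.092, rbcL -0.059, clpP -0.098, petD -0.048, psbA -0.031, psbK -0.038, rpoC2 -0.019 and psbD -0.043. With median chloroplast scaling, ATCG00400 became -0.025 and clpP -0.031. When libraries were left out in turn, the log2 fold change ranged from -0.47 to 0.15 for atpH, -0.39 to 0.51 for rpoC1, -0.27 to 0.58 for rpoB, -0.41 to 0.23 for psbC, -0.077 to 0.60 for psbZ, -0.34 to 0.019 for rps14, -0.69 to 0.17 for psaA and -0.72 to 0.20 for psaB. It ranged from -0.12 to 0.083 for ATCG00390, -0.036 to 0.070 for ATCG00400, -0.21 to 0.056 for ndhK, -0.19 to 0.0035 for atpE, -0.44 to 0.31 for rbcL, -0.40 to 0.23 for cemA, -0.53 to 0.21 for petA and -0.45 to 0.042 for psaJ. It ranged from -0.37 to 0.21 for clpP, -0.38 to 0.48 for petB, -0.35 to 0.33 for petD, -0.20 to 0.45 for rpoA, -0.29 to 0.46 for ndhA, -0.032 to 0.43 for ycf1, -0.33 to 0.40 for psbA, -0.19 to 0.23 for psbK, -0.47 to 0.45 for rpoC2 and -0.31 to 0.28 for psbD. SIG3 ranged from -0.11 to 0.071 and SIG6 from -0.11 to 0.054.

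Over all genes tested, deviations of libraries with the same replicate number correlated at -0.03, 0.15 and 0.04. Those with different numbers correlated at -0.15 to 0.11. Whether the numbers pair the samples, as by a shared growth, cannot be told from these values. With the replicate block, the counts stayed at 1 higher and 1 lower, with limma adjusted p of 0.0091 for psbI and 0.0075 for ATCG00090. Limma-voom on recovered reads called 2230 genes in all, against 2080. Counting copies once, other pseudocounts and a 5 RPKM filter left both chloroplast counts at 1. Loci that rest on few reads, such as ATCG00260 with 0 to 22, are limited by counting.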
